A study of Mus musculus with 8 samples.

Results

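DNA methylation was compared between lung metastases of the 4T1 model labelled TVI and those labelled MFP, with 3 samples of each, so that 6 of the 8 samples of the series enter the contrast. 4T1 is a mouse mammary carcinoma line that came from a BALB/c mouse and spreads to the lung; all samples are 4T1 tissue in the BALB/c strain. The labels give MFP and TVI as abbreviations in the sample names, and both are kept here as written. The 2 remaining samples are mammary tumors labelled MFP, called primary tumors below, and they serve as a reference level: they enter the fit through its estimate of the spread, not through the difference. No agent, time or age is stated for any group, and the labels do not say whether the replicates are different animals. Every p-value below therefore reflects the variation among these particular samples, part of which may be technical. Metastases are bulk tissue, in which a change in the cells and a change in the mixture of cells cannot be told apart. The members are all 136069 rows of the table, each 1 cytosine position with a methylation level in every sample.

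In mammals a methyl group is placed on cytosines that are followed by a guanine, called CpG sites. Most CpGs in the genome are scattered and highly methylated, whereas dense clusters of CpGs around gene starts are usually unmethylated. The change from low to high methylation at the edge of such a cluster is steep, and the edges, often called shores, are known to differ between tissues and between tumors. Methylation over a gene start is in general associated with low transcription, but transcription was not measured in the samples used here.

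The level of a site is the share of its reads that were methylated, given below in percent, and differences are given in percentage points. Over all sites the 3 MFP metastases averaged 67.4% to 67.5% and the 3 TVI metastases 68.5% to 68.7%, while the primary tumors stood at 66.6% and 66.9%. Read depth per site is not in the table, so no counting error can be attached to a level, and the spread between samples is the error used. Neighbouring sites at most 500 bp apart were joined into 3083 regions of at least 3 sites, with a median of 31 sites and 1935 bp. Deposited positions do not follow GRCm38.p6, the mouse build called mm10 that the submitters' processing notes name: 557 of 3166 sites on chromosome 7 lie beyond the last gene of that build. Genes were therefore found by sequence. The spacing of CpGs in RefSeq promoter sequences (250 bases before and 50 after each gene start) was matched to the spacing of the deposited positions, which placed the starts of 299 genes. A window was accepted only if at least 90% of its sites fell exactly on a CpG. That 4190 of the 4201 sites in the matched windows did so is therefore no independent check. With the CpG spacing mirrored as a check, 0 windows matched. Regions between 2 matched starts with the same offset, or holding a matched start, were placed by removing that offset. They were named by the protein-coding RefSeq genes they overlapped or lay nearest to. Matched starts can be far away: the nearest was 1671911 bp from the first plotted Irf1 region and 3544282 bp from the plotted Wnt7b region. Other regions are given by chromosome and deposited position.

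Promoters are shown first because their sequence shows which CpGs were measured. Each line holds the 250 bases before the gene start from RefSeq (build GRCm38.p6), read in the direction of the gene, with the CpGs that have a site in the table in capitals. The first 4 belong to promoters that gained methylation in the TVI metastases. They are Notch1, a receptor through which neighbouring cells signal (chr2:26503823-26504072, minus strand), Fzd1, a receptor for Wnt proteins (chr5:4758217-4758466, minus strand), Hoxa10, a homeobox transcription factor (chr6:52240855-52241104, minus strand), and Tjp3, which encodes the tight-junction scaffold ZO-3 (chr10:81291268-81291517, minus strand).
Notch1: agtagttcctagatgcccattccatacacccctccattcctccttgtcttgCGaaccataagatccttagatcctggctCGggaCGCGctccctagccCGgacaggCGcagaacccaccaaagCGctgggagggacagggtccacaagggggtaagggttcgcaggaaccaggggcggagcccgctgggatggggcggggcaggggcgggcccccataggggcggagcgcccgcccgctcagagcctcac
Fzd1: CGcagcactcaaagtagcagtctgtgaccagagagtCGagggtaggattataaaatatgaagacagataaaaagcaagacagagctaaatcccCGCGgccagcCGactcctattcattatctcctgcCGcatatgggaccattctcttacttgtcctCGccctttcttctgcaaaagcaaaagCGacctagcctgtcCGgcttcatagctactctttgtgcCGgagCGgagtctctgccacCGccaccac
Hoxa10: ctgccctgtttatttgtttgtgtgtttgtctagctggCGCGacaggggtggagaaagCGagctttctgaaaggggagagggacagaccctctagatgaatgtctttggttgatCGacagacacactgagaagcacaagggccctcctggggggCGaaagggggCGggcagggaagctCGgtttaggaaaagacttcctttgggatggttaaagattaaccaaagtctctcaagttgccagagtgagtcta
Tjp3: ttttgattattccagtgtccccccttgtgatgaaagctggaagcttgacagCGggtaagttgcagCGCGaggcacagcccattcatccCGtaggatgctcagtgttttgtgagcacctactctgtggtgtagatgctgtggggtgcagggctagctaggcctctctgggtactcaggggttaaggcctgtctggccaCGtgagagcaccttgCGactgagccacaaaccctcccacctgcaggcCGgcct

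The next 2 promoters lost methylation: Cldn7, a claudin of epithelial tight junctions (chr11:69965171-69965420, plus strand), and Cyba, the p22phox subunit of the NADPH oxidase (chr8:122432941-122433190, minus strand). The last 2, Fzd7, another receptor for Wnt proteins (chr1:59481897-59482146, plus strand), and Nfkbia, which encodes the NF-kappaB inhibitor IkappaBalpha (chr12:55492648-55492897, minus strand), are promoters that stayed near 0 beside regions that lost methylation.
Cldn7: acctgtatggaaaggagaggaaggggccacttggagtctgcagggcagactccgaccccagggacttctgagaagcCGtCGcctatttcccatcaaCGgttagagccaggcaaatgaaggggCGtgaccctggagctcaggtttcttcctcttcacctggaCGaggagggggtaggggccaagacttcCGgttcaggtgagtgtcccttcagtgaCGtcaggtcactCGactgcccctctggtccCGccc
Cyba: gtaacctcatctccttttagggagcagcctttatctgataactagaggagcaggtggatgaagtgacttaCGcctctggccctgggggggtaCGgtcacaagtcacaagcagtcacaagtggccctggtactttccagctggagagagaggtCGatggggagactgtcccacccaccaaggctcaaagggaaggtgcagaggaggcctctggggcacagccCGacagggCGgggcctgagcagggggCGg
Fzd7: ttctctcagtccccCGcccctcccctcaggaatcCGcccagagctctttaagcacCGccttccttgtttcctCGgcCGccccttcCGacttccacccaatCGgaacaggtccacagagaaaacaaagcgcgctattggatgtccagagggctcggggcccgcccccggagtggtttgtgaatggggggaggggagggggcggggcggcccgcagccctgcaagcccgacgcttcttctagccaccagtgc
Nfkbia: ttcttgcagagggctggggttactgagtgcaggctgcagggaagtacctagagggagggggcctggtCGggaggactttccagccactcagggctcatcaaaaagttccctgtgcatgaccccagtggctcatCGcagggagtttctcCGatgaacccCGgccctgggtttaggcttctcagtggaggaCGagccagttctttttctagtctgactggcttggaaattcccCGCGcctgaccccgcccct

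Of the 299 promoter windows, 29 were higher in TVI than in MFP metastases (9.7% of those tested) and 21 were lower (7.02%), at a limma adjusted p under 0.05 with Benjamini-Hochberg adjustment over all windows. After quantile normalization, which gives all 8 samples the same distribution of levels, the split was 23 higher and 30 lower, so the balance of directions among promoters depends on the scaling. The 26 windows with a difference of at least 10 points and no overlap between the groups are described here; this limit was set after the values were seen. Among them 14 fell and 12 rose. A level covers only the CpGs of a window that were measured, which were all 9 at Cyba but 5 of 28 at Haspin.

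Cldn7 had the largest fall of a promoter. Its 9 measured CpGs averaged 85.8%, 88.3% and 86.8% in the MFP metastases and 55.4%, 49% and 49% in the TVI metastases, against 89.4% and 85.6% in the primary tumors. The groups lay apart, and the promoter fell by 35.8 points (SE 2.0, limma adjusted p 2.17e-06). Cyba stood at 38.8%, 43.1% and 37.3% in MFP and at 9.30%, 2.04% and 4.67% in TVI metastases, so that a promoter methylated at an intermediate level in the tumors was nearly free of methylation in TVI (fell by 34.4 points, SE 2.21, adjusted p 4.24e-06). Col18a1, which encodes the collagen from which endostatin is cut, went from 44.5%, 37.7% and 37.6% to 8.29%, 5.0% and 6.26%. Creld1, a membrane protein with EGF-like domains, was almost fully methylated in MFP (97.8%, 97.3% and 98.8%) and less so in TVI (76.3%, 62.1% and 59.1%). Prkag2, a regulatory subunit of the energy sensor AMPK, had 33.7%, 37.0% and 34.1% in MFP and 13.3%, 2.71% and 5.78% in TVI. In each of these 5 promoters TVI replicate 1 was the TVI sample nearest to the MFP values.

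Rasgrp2, an exchange factor for the small GTPase Rap1, fell by 24.0 points from 70.5% ± 1.25 to 46.5% ± 5.17 (SD, n = 3 each). Rara, the retinoic acid receptor alpha, fell by 14.9 points from 76.4% ± 2.45 to 61.5% ± 2.67. Haspin, a mitotic histone kinase, fell by 12.4 points and ended at 4.77% ± 1.23. The claudin Cldn14 fell by 11.6 points, with TVI values of 22.0%, 22.2% and 21.9%. The remaining falls were at Tcam1, Gm15998, Paqr4, Abhd15 and Dcxr, of which Dcxr changed least (fell by 10.03 points).

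Notch1 had the largest rise. Its 7 measured CpGs averaged 18.6%, 19.2% and 23.6% in the MFP metastases and 51.6%, 49.4% and 41.9% in the TVI metastases, with the tumors at 19.7% and 22.7%. The difference was 27.2 points (SE 2.69, limma adjusted p 6.71e-05). Tjp3 rose from 51.9%, 45.6% and 48.4% to 69.2%, 76.9% and 76.0%. The Dennd4b promoter, of a gene for a Rab exchange factor, was nearly unmethylated in every MFP sample (1.42%, 1.40% and 2.07%) and reached 26.8%, 27.8% and 24.4% in TVI (24.7 points, SE 0.885, adjusted p 8.12e-08). Hoxa10 rose from 62.7%, 58.7% and 59.4% to 79.6%, 85.6% and 84.5%, and all 7 CpGs in the printed stretch were measured. Fzd1 rose from 4.89%, 6.77% and 7.89% to 26.2%, 32.6% and 23.9%, over 12 measured CpGs. At all 5 of these promoters the lowest TVI value was above the highest MFP value.

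Smaller rises were at Cd63, a tetraspanin of late endosomes (16.4 points), Gm52569 (15.1 points), Adcy3, an adenylyl cyclase (14.9 points), and Gm35930 (11.02 points). At 3 more, the MFP samples were spread more widely and the call depended on the setting. The kinase gene Akt2 had 36.9%, 13.8% and 31.5% in MFP and 48.0%, 53.3% and 42.5% in TVI, with an adjusted p of 0.0322. The claudin Cldn3 had 79.1%, 72.4% and 56.0% against 91.9%, 85.6% and 84.3%, with an adjusted p of 0.0306. Tlr5, the receptor for bacterial flagellin, had 34.1%, 42.7% and 46.7% against 56.3%, 51.1% and 52.2%, with an adjusted p of 0.0296. Akt2 lost its call without MFP replicate 2 or without any 1 of the TVI replicates (adjusted p 0.0518 to 0.109), and Cldn3 did so without the same samples (0.0539 to 0.104). Tlr5 lost it without MFP replicate 1 or 2 or TVI replicate 1 or 3 (0.0643 to 0.0783). After quantile normalization Tlr5 (0.157) and Akt2 (0.0899) did not pass, and with no variance trend Akt2 (0.0845) and Cldn3 (0.0847) did not. In the plot of the 26 promoters the gaps between blue and red points show which differences exceed the spread.

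**Figure D1:**
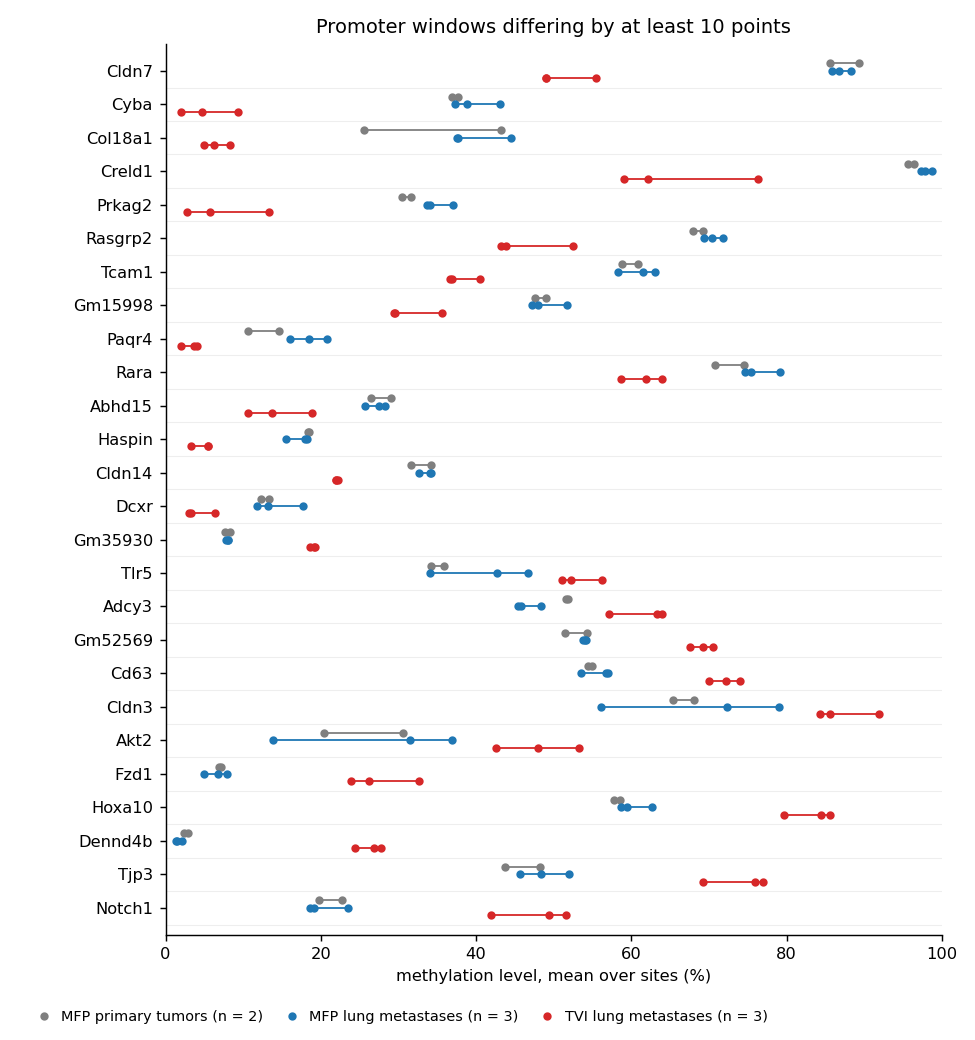
Mean methylation level (%) of the sites in each of the 26 promoter windows, 1 point per sample and a line over the range of each group, ordered from the largest fall (Cldn7) to the largest rise (Notch1). MFP and TVI lung metastases do not overlap in any of the 26, by the rule that chose them, and the primary tumors (grey) lie nearer to the MFP metastases (blue) in all 26. The share over all windows was not computed.

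Most of the promoters on the table were unmethylated and stayed so. In the primary tumors 230 of the 299 windows had at most 20% methylation, and 14 of these rose and 6 fell. Of the 34 windows between 20% and 80% in the tumors, 11 rose and 11 fell, and of the 35 windows at 80% or more, 4 rose and 4 fell. Windows that passed the test held a median of 13.5 CpGs, and those that did not held 20. Among the unmethylated promoters that rose by a few points were the interferon gamma receptor subunit Ifngr2 (4.96 points), the collagen receptor kinase Ddr1 (5.76 points) and the DNA repair enzyme Parp1 (3.34 points). The growth factor binding proteins Igfbp2 and Igfbp6, both highly methylated, went opposite ways (fell by 5.57 points and rose by 6.96 points).

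At several genes the difference lay beside the promoter, at the edge of the unmethylated stretch. No region held more sites with a difference of 50 points or more than Fzd7, which had 80. Its region of 192 sites (chromosome 1, positions 59537821 to 59541859) averaged 48.5%, 49.98% and 50.4% in MFP and 20.2%, 13.8% and 16.0% in TVI metastases, and fell by 33.0 points (SE 1.48, limma adjusted p 3.1e-06). The promoter printed above did not pass the test: its 7 sites averaged 1.47% ± 0.328 in MFP and 1.28% ± 0.946 in TVI, with an adjusted p of 0.902. The first 1000 bp after the start were also low, at 3.69% in MFP and 1.66% in TVI. From 1000 to 2000 bp after the start all 64 sites fell, from 71.0%, 75.6% and 76.1% to 14.1%, 4.93% and 8.57%. Beyond 2000 bp all 37 sites fell as well, from 96.3% ± 0.104 to 42.8% ± 8.96. No site around this gene rose. In MFP metastases and tumors the unmethylated stretch therefore ended about 1000 bp after the start, and in TVI metastases low levels extended about 1000 bp further.

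Irs2, an adaptor of the insulin receptor, had a similar form after its start. Its region of 212 sites (chromosome 8, positions 11001191 to 11008319) went from 36.8%, 36.8% and 36.2% to 16.4%, 8.73% and 11.4%. That region begins 611 bp after the Irs2 start and also holds the matched start of 9530052E02Rik. Before the Irs2 start, 4 of the 25 sites from 2000 to 1000 bp rose and 1 fell. The 21 sites of its promoter window stayed at 1.11% in MFP and 1.16% in TVI, and the 53 sites from 1000 to 2000 bp stayed low at 2.84% and 1.72%. From 2000 to 4000 bp, 48 of 50 sites fell, and the mean went from 63.0% ± 1.99 to 22.7% ± 6.53. At Nfkbia the window was low in both groups (1.32% and 1.87%, adjusted p 0.197), and the 34-site region that begins 982 bp after the start (chromosome 12, positions 56591181 to 56592653) went from 60.9%, 60.5% and 59.0% to 27.1%, 17.3% and 21.2%. With a fall of 38.3 points (SE 2.17, adjusted p 6.94e-06) it was the largest fall among all regions of at least 5 sites. On the other side of the same start the sites rose: those from 2000 to 1000 bp before it went from 84.3% to 89.3%, and 10 of the sites within 4000 bp before it passed the test, all higher.

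Cyba lost methylation over the start itself. Of its 45 sites in the first 1000 bp, 42 fell, from 39.9%, 44.6% and 43.1% to 14.7%, 6.88% and 9.35%, while 8 of 27 sites from 2000 to 4000 bp rose. Notch1 showed the opposite pattern. The first 1000 bp after its start stayed at 1.35% in MFP and 1.80% in TVI, but the sites from 1000 to 2000 bp rose from 3.33%, 2.96% and 4.49% to 20.6%, 23.7% and 22.5%. Those of the 1000 bp before the start rose from 75.4% ± 1.22 to 84.5% ± 0.754. Here the unmethylated stretch was narrower in TVI on both sides. At Hoxa10, 13 sites from 212 bp before to 350 bp after the start rose, and the 21 sites from 1000 to 2000 bp after it stayed at 2.31% and 2.84%. The profile plot shows these edges site by site.

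**Figure D2:**
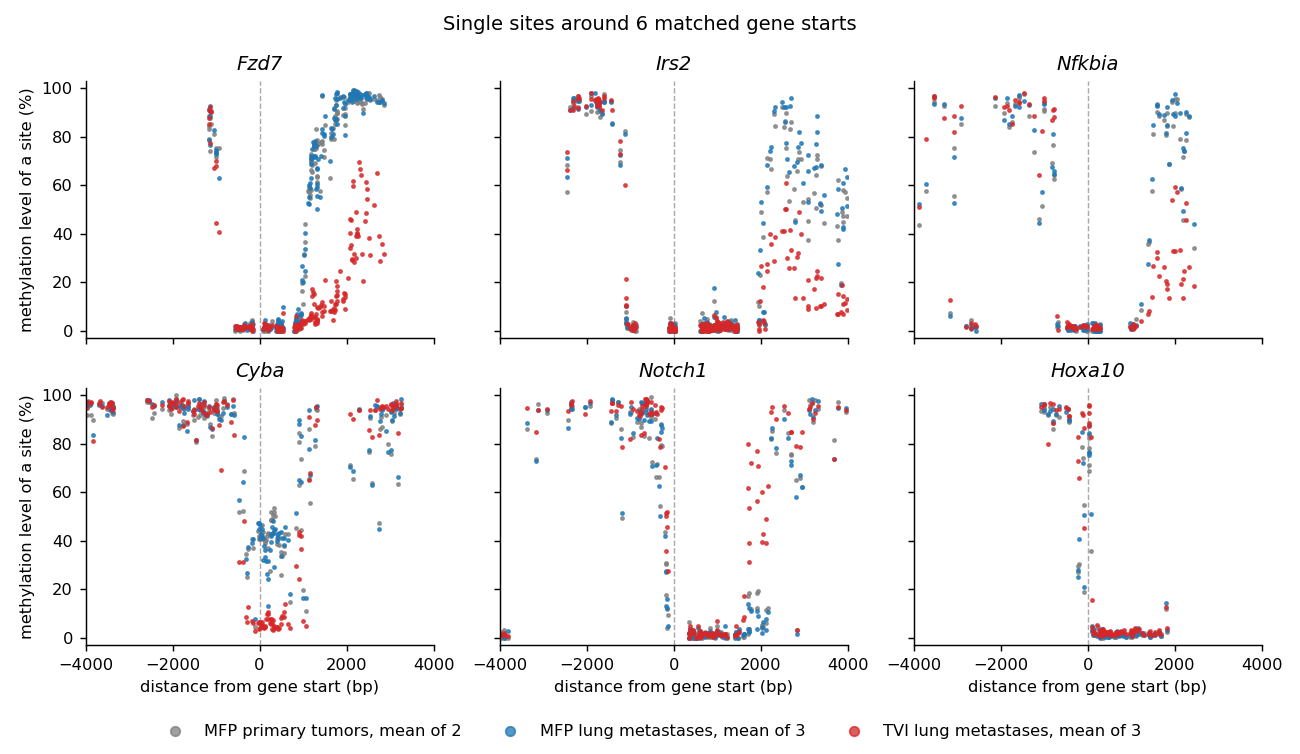
Methylation level (%) of every site within 4000 bp of 6 matched gene starts, against distance from the start in bp with the gene body to the right; each point is the mean of the 2 primary tumors (grey), 3 MFP metastases (blue) or 3 TVI metastases (red). At Fzd7, Irs2 and Nfkbia the red points stay low further to the right than the blue ones, at Cyba they drop over the start, and at Notch1 and Hoxa10 they rise at the edges.

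Across all regions, 1294 were higher in TVI than in MFP metastases (42% of those tested) and 424 were lower (13.8%). Quantile normalization changed the split to 928 higher and 687 lower, and took the median difference over all 3083 regions from 0.837 to 0.126 points. Using the median of the sites of a region in place of their mean left 762 regions, of which 559 were higher and 203 lower. Most differences were small: 775 of the rises and 269 of the falls were under 5 points, and 39 rises and 16 falls reached 20 points. The 15 largest rises and the 15 largest falls among regions with at least 5 sites and no overlap of the groups are plotted by sample.

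**Figure D3:**
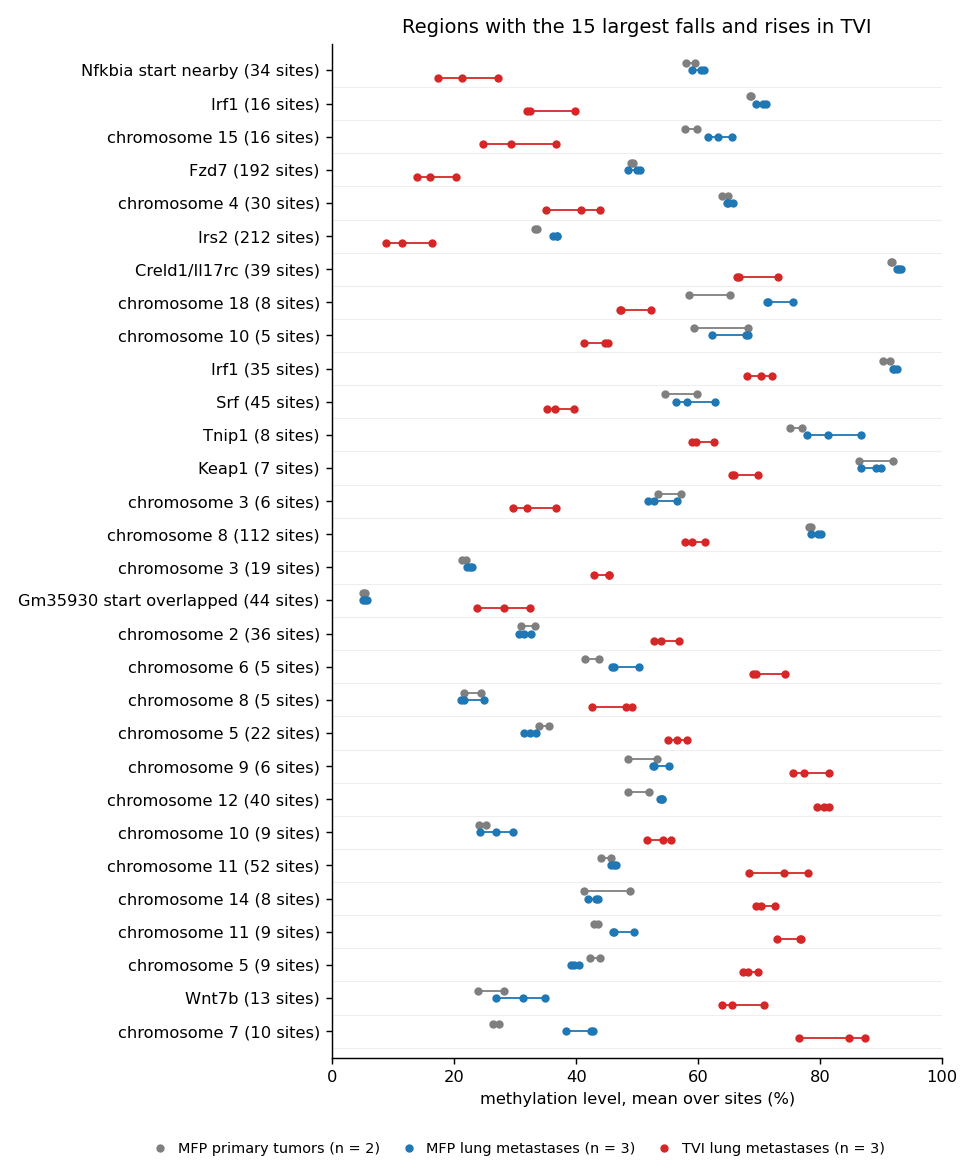
Mean methylation level (%) of 30 regions in each sample, with a line over the range of each group; the 15 largest falls in TVI are at the top and the 15 largest rises at the bottom, labelled by gene where a gene could be placed and otherwise by chromosome. The TVI metastases (red) lie apart from the MFP metastases (blue) in all 30 by the rule that chose them, and the primary tumors (grey) lie nearer to the MFP metastases in all 30. The share over all regions was not computed.

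Among the falls were 2 neighbouring regions of Irf1, an interferon-induced transcription factor. The 16 sites at positions 53584238 to 53585380 of chromosome 11 went from 70.6%, 69.4% and 71.2% to 39.9%, 31.9% and 32.5% (fell by 35.7 points, SE 1.95, limma adjusted p 5.97e-06). The next 35 sites, at positions 53585986 to 53588051, went from 92.3% ± 0.370 to 70.2% ± 2.08. Tnip1, whose product binds A20 and restrains NF-kappaB, fell by 21.6 points over 8 sites. Creld1 and Il17rc share a region of 39 sites (chromosome 6, positions 113433020 to 113434533) that went from 93.0%, 92.6% and 93.2% to 73.0%, 66.6% and 66.4%. Srf, the serum response factor, fell by 22.0 points over 45 sites, from 59.1% ± 3.26 to 37.1% ± 2.20. Keap1, the partner that holds the stress factor Nrf2 in check, fell by 21.5 points over 7 sites. A region of 112 sites on chromosome 8 (positions 24520476 to 24523605), where no gene could be placed, fell by 20.1 points, with 69 sites lower and 12 higher. One fall was not stable: the 5 sites at position 80590363 of chromosome 10, 2920 bp from Map2k2, fell by 22.4 points, but the wider region they join at 1000 bp differed by 0.142 points with an adjusted p of 0.729.

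The largest rise of a region was on chromosome 7 (positions 149618262 to 149618577), beyond the genes that could be placed. Its 10 sites went from 42.5%, 38.3% and 42.7% in MFP to 76.6%, 87.3% and 84.7% in TVI metastases, a difference of 41.7 points (SE 2.62, adjusted p 1.03e-05). The primary tumors stood lower still, at 26.3% and 27.3%. The next was at Wnt7b, a secreted Wnt ligand, where 13 sites (chromosome 15, positions 85408652 to 85409299) rose from 26.8%, 34.9% and 31.3% to 65.6%, 70.8% and 63.9%, with all 13 sites higher. A region 16809 bp from Socs3, a suppressor of cytokine signalling, rose by 28.3 points over 9 sites, all higher. On chromosome 12, 37 of 40 sites at positions 8781817 to 8784849 rose, from 54.0% ± 0.146 to 80.6% ± 0.953. A stretch 9518 bp before the start of the Notch ligand Dll4 rose by 23.0 points over 36 sites, while the promoter window of Dll4 itself was at 1.44% in MFP and 1.39% in TVI.

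Among single sites, 14120 were higher in TVI (10.4% of the 135914 tested) and 8881 were lower (6.53%), and quantile normalization gave 11542 higher and 11017 lower. A difference of 50 points or more was found at 719 sites, 351 higher and 368 lower, in 275 regions. The regions of Fzd7 and Irs2 together held 128 of them. A Fzd7 site at position 59540732 had the largest fall, from 100%, 92.9% and 95.5% in MFP to 10.2%, 4.92% and 10.4% in TVI. At Smtn, which encodes the smooth-muscle protein smoothelin, the site at position 3435786 of chromosome 11 went from 97.6%, 95% and 95% to 23.5%, 6.67% and 12.7%, although the 180 sites of that region fell by 5.61 points on average. Among rises, a site at position 141083023 of chromosome 5 went from 10.3%, 10.3% and 6.85% to 83.8%, 97.4% and 92.1%. In a region that begins 6013 bp after the start of Gadd45b, a stress-response gene, a site rose from 7.73%, 3.09% and 8.85% to 77.6%, 94.5% and 88.5% (chromosome 10, position 80400051).

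Genes of several pathways were followed from lists that were drawn up with earlier results on these samples known, so the counts describe the lists and are no independent evidence. In the main fit they are to be read against the 42% of all regions that rose and the 13.8% that fell. List counts under the other settings have their own background. Of all 3083 regions, 928 rose and 687 fell after quantile normalization, and 559 rose and 203 fell with region medians. Of the 49 Wnt genes listed, 14 had a placed region, and 37 of their 56 regions rose and 8 fell, with a median difference of 2.91 points. After quantile normalization 29 rose and 13 fell, and with region medians 22 and 6. All 7 regions of the ligand gene Wnt9a rose, by 2.04 to 17.4 points, and its first and longest went from 34.0%, 34.8% and 34.4% to 46.5%, 49.3% and 47.5%. All 6 regions of Wnt7b rose, by 2.73 to 35.8 points. After quantile normalization 6 regions of Wnt9a and 3 of Wnt7b remained called, and with region medians 5 and 3, none of them lower. Wnt3 had 6 of 8 regions higher and 2 lower, and Wnt9b 4 of 6 higher and 1 lower. All 3 regions of Tcf7, a transcription factor at the end of the pathway, rose by at most 4.27 points, though 0 of them passed with region medians. The receptors did not move alike: the region around the start of Fzd1 rose by 13.0 points, Fzd2 rose by 1.82 points, and Fzd7 and Fzd9 fell by 33.0 and 3.15 points. With region medians Fzd2 (0.798 points, adjusted p 0.246) and Fzd9 (-0.546 points, adjusted p 0.394) did not pass.

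Of the Notch list, 5 of 20 genes were placed, and 6 of 17 regions rose and 1 fell, with a median difference of 1.04 points (5 rose and 3 fell after quantile normalization). At the receptor Notch4, 5 sites rose from 40.5%, 43.3% and 42.5% to 57.5%, 57.8% and 56.1%. Notch1 rose in 3 of 10 regions, the longest being the 234 sites around its start (7.18 points), and fell by 2.46 points in 1, while its other 6 regions did not pass the test. Quantile normalization left 2 of its regions higher and 2 lower. The regions of the ligands Dll4 and Jag1 differed by 0.415 and -0.371 points and did not pass, although Jag1 passed after quantile normalization (fell by 0.921 points, adjusted p 0.00438).

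NF-kappaB and interferon regulators had 27 regions on 10 of 33 genes, of which 6 rose and 8 fell, with a median of -0.178 points. After quantile normalization 5 rose and 12 fell, and with region medians 3 and 4. Nfkbia entered the list with 1 region, around its start, which rose by 4.81 points. The 34-site region that begins 982 bp after that start and fell by 38.3 points could not be placed and is not in these counts. Irf1 made up 4 of the 8 falls. Its first region, of 43 sites, was at 20.5% in MFP and 19.9% in TVI with an adjusted p of 0.287 (0.00268 after quantile normalization), and the 4 that follow fell by 35.7, 22.1, 12.9 and 4.74 points in that order along the chromosome. Nfkb2 fell in 2 of 3 regions by at most 2.89 points, in all 3 after quantile normalization and in 0 with region medians. Rela, the p65 subunit, had 1 region higher by 2.79 points and 1 that fell by 6.07 points, where the region median was higher by 1.46 points and did not pass. None of the 3 regions of Stat3 passed, and neither did the single regions of Socs1 and Socs2, of which Socs2 fell by 3.32 points after quantile normalization.

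Of the list for epithelial to mesenchymal transition and adhesion, 7 of 30 genes were placed, and 10 of 24 regions rose and 6 fell (7 and 6 after quantile normalization, 4 and 3 with region medians). The claudins diverged: the 101-site region of Cldn3 rose from 73.2%, 70.0% and 69.7% to 86.1%, 90.5% and 90.2%, the 79-site region of Cldn7 fell from 87.6%, 86.6% and 84.3% to 78.2%, 74.1% and 74.5%, and the region of Cldn4 differed by -0.0433 points and did not pass. Snai1, a repressor of epithelial genes, fell by 9.79 points over 106 sites. Cdh1, which encodes E-cadherin, had 5 of 12 regions higher and 2 lower (3 and 1 with region medians), from -7.10 to 6.95 points.

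Nuclear receptors and histone deacetylases had 41 regions on 4 of 23 genes, of which 13 rose and 8 fell. The balance turned after quantile normalization (8 and 11) and with region medians (2 and 3). Rxra, the partner of many nuclear receptors, rose in 8 of 17 regions and fell in 0 (4 and 2 after quantile normalization), while Rara fell in 6 of 12 and rose in 2. With region medians Rxra rose in 2 and fell in 0, and Rara rose in 0 and fell in 2. Of the forkhead, homeobox and SOX factors, 6 of 43 genes were placed, with 2 regions higher (Hoxa10 and Sox9) and 2 lower (Foxc2 and Sox10), and 1 of each (Sox9 and Sox10) with region medians. TGF-beta and BMP signalling had 1 placed region, at Ski, which rose by 1.28 points, and the DNA methylation machinery had 2, both at Mbd3, of which 1 rose by 1.32 points. Neither rise passed after quantile normalization or with region medians. The spread of the regions of each gene is plotted for 4 of the lists.

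**Figure D4:**
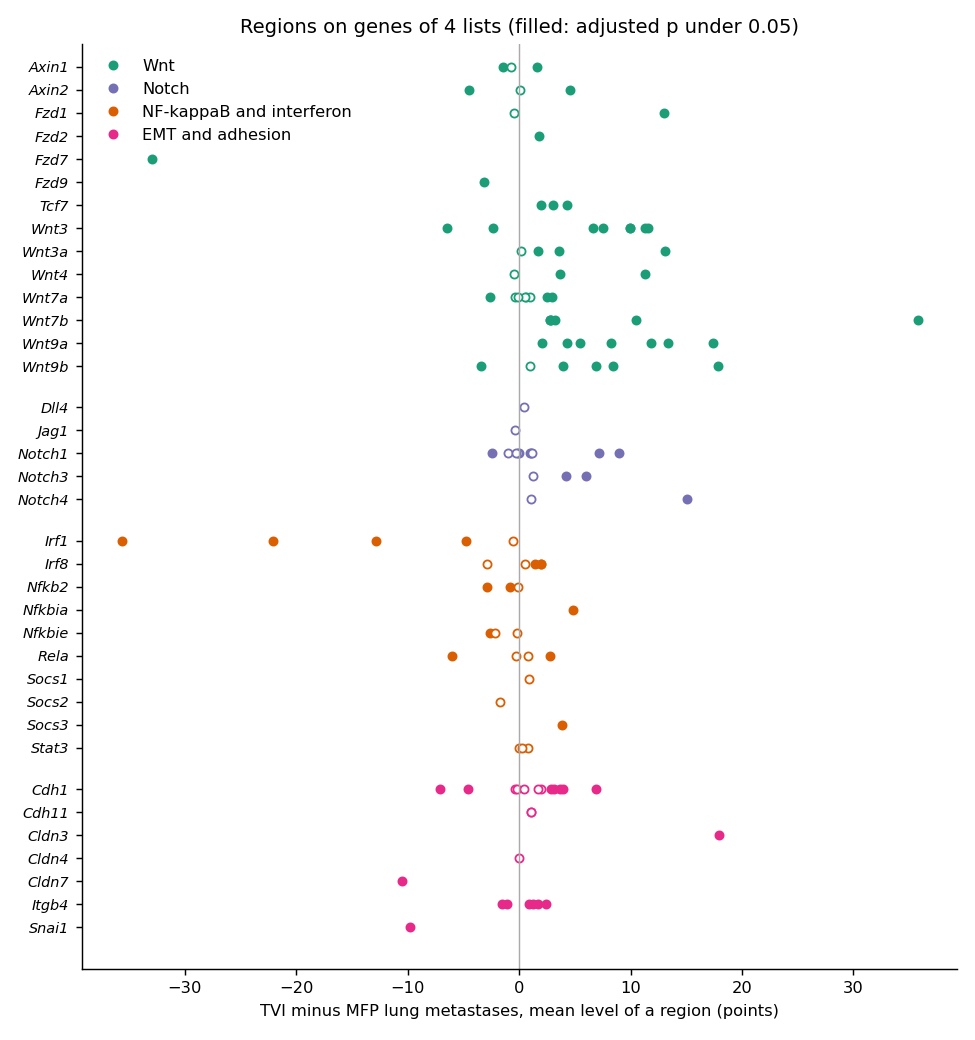
Difference in mean methylation level (TVI minus MFP lung metastases, percentage points) of every placed region of the genes in 4 lists, 1 point per region, filled where the limma adjusted p is under 0.05. The points of Wnt7b and Wnt9a are all filled and to the right of 0 (3 of 6 and 6 of 7 pass after quantile normalization), Fzd7 and Irf1 reach furthest to the left, and most other genes lie within 10 points of 0. The region after the Nfkbia start that fell by 38.3 points was not placed and is not shown.

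Lung metastases can hold cells of the host lung. Lists of genes that mark other cell types gave few regions: lung epithelium had none placed, and the blood cell list had 2, both at Itgb2, which differed by 0.367 and 0.721 points and did not pass. The fibroblast and smooth muscle list had 1, at Myh11, which differed by 0.474 points and did not pass; after quantile normalization Myh11 and 1 region of Itgb2 passed, each lower (fell by 1.88 and 1.60 points). The mammary epithelium list had the 12 regions of Cdh1. The endothelial list had 4, of which Pecam1 (8.81 points), Cdh5 (4.91 points) and Cldn5 (1.68 points) rose and Flt1 fell by 2.47 points, and only Cdh5 passed with region medians. The part of host cells in the differences was not tested.

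The direction of change went with how methylated a site was in the primary tumors, whose levels do not enter the difference between the metastases. Sites of low level have little room to fall and sites of high level little room to rise, and the part of these bounds in the directions was not tested. The class means were not computed after quantile normalization. Sites at 20% or less in the tumors rose from 3.94% ± 0.0154 in MFP to 6.43% ± 0.149 in TVI metastases (2.49 points over 31106 sites). Sites between 20% and 80% rose from 57.5% ± 0.129 to 62.7% ± 0.0534 (5.14 points over 22159 sites), and here 36.4% of the sites were called higher and 16.3% lower. Sites at 80% or more fell by 0.470 points, from 94.0% ± 0.0706 to 93.5% ± 0.218. In each of the 3 classes the TVI and MFP samples did not overlap, which gives a 2-sided exact permutation p of 0.1, the smallest that 3 against 3 allows (adjusted p 0.1 over the 6 classes tested by level and by density). In bins of 10 points the difference peaked at 9.19 points for sites of 20% to 30% and passed below 0 at 80%.

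The mean difference also varied with the density of sites. With at most 6 other sites within 250 bp, the mean rose by 2.29 points. With 7 to 11 it rose by 1.34 points, and with more it fell by 0.412 points, each with an exact permutation p of 0.1. Without the regions of Fzd7 and Irs2, the mean of the dense sites fell by 0.231 points. Sparse sites that were unmethylated in the tumors went from 6.30%, 6.18% and 6.30% in MFP to 11.7%, 12.6% and 12.3% in TVI, a difference of 5.94 points, with 27.4% of them called higher. Dense unmethylated sites rose by 0.620 points, from 2.55% to 3.17%. Among dense sites of intermediate level, 27.4% were called higher and 27.0% lower, and the mean fell by 0.892 points.

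**Figure D5:**
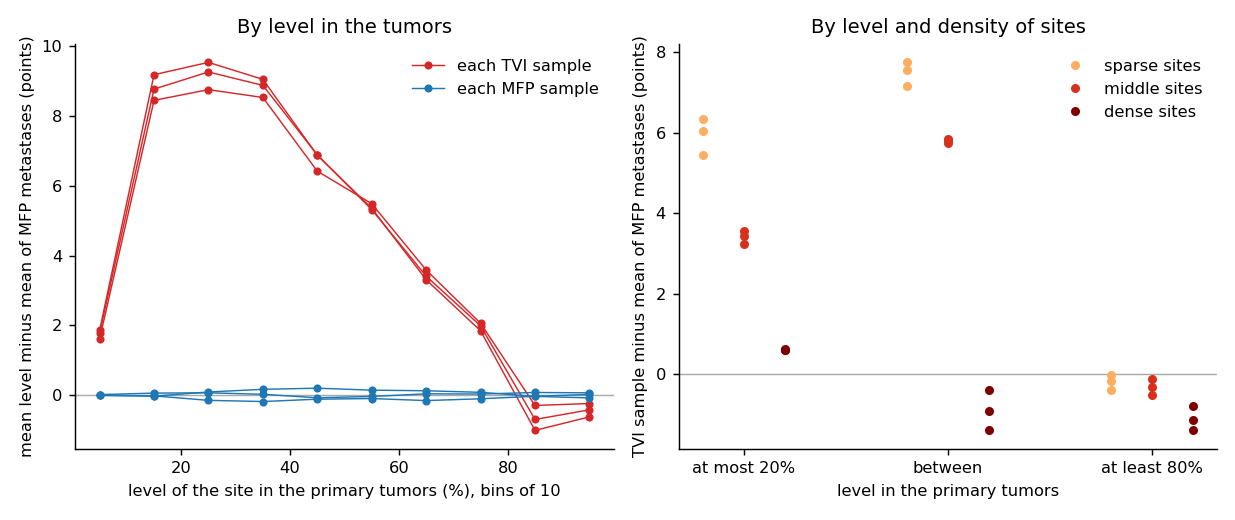
Left, mean level of each metastasis sample minus the mean of the 3 MFP metastases (percentage points), for sites in bins of 10 points of their level in the primary tumors; the TVI lines (red) reach 9.19 points on average at 20% to 30% and lie below 0 above 80%. Right, each TVI sample minus the mean of the MFP metastases by tumor level and by the number of sites within 250 bp, where sparse sites at or under 20% rose by 5.94 points on average and dense ones by 0.620 points.

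Around the 299 matched starts, the share of sites called in either direction was lowest next to the start, at 10.02% from 250 bp before to the start and 9.83% in the first 250 bp after it. It was 24.7% from 1000 to 500 bp before the start and 23.8% from 1000 to 2000 bp after it. From 2000 to 1000 bp before the start, 13.3% of the sites rose and 8.49% fell, whereas in the last 250 bp before it 4.48% rose and 5.54% fell. After the start 8.30% rose and 12.7% fell from 500 to 1000 bp, and 9.79% rose and 14.0% fell from 1000 to 2000 bp. The mean difference in the last of these bins was -2.11 points. Without the regions of Fzd7 and Irs2 it was -0.820 points, and 12.3% of the remaining 3114 sites fell.

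Called sites close to each other changed alike. Pairs of called sites at most 10 bp apart had the same direction in 98.2% of 2525 pairs, those over 100 and up to 250 bp apart in 87.0%, and those over 1000 and up to 2000 bp apart in 68.7%. As 61.4% of all called sites were higher, part of the pairs would match at any distance. That share was not computed. Opposite changes within 1 region were nonetheless frequent: 1370 regions held called sites of both directions, and 518 held at least 3 of each. Among all regions, 900 did not pass the test as a whole but held called sites.

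The 3 TVI metastases were not equally far from the MFP metastases. TVI replicate 1 was the TVI sample nearest to the MFP mean at 63.7% of the sites that fell, at 55.2% of the sites that rose, and in 25 of the 30 plotted regions. At the sites that fell, the median drop relative to MFP was 15.2 points in replicate 1, 19.4 in replicate 2 and 17.9 in replicate 3. Leaving that replicate out changed the count of called regions from 1718 to 1615. The primary tumors lay nearer to the MFP than to the TVI metastases at 1602 of the 1718 called regions, in all 30 plotted regions and in all 26 plotted promoters. These sets were chosen by their difference between TVI and MFP, and the share over all regions or windows was not computed. Over all sites the tumors (66.7%) also stood nearer to the MFP mean (67.4%) than to the TVI mean (68.6%).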

How the data were processed

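Bisulfite sequencing gave methylation levels for 8 samples. The authors deposited 1 table of beta values, the fraction of methylated reads at each position, with no read counts; per the submitters' processing notes Trimmomatic, Bismark and mm10 were used, and the coverage filter is not given in the sources used here. Fractions were multiplied by 100. Sites, region means and promoter means were tested with limma 3.58.1 in R 4.3.3 (1 mean per group over all 8 samples, variance trend, 2-sided, Benjamini-Hochberg adjustment, threshold 0.05); 155 sites without variation were left out. Means were computed with pandas 2.3.3. Seeds were promoter windows matched by at least 10 CpGs, or 6 with an offset shared by another gene (295 matches). Windows matched by at least 5 CpGs were added where their offset equalled that of a neighbouring seed. Others needed every site on a CpG, a product of CpG densities of at most 1e-07 and an offset within 100 kb of that seed's. In every window at least 90% of the sites had to lie on a CpG, and 339 windows matched. Fits were tested on simulated data. Named regions and sites followed a rule of rank (15 rises and 15 falls of regions with at least 5 sites, 10 rises and 10 falls of sites, at most 2 per region). Regions, lists and limits were chosen with earlier results of these data known. Promoter tests and the 2 analyses without the Fzd7 and Irs2 regions were added after seeing the data. Alternatives covered the samples fitted, scale, normalization, variance model, pairing, joining distance, filters and each sample left out.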

Additional observations from a re-analysis of the deposited data

How the results depend on the processing

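The calls depended mainly on how sites were summarised. With sites joined at 250 bp, 3188 of 7243 regions passed, with joining at 1000 bp 995 of 1489, and with the region median 762 of 3083, of which 13 had the opposite direction. The first 2 settings also change the number of regions tested, and the cause of the differences in count was not tested. With at least 8 sites in a window 31 of 221 promoters passed, against 50 of 299 in the main fit, and 29 of the main calls were kept. Leaving out each sample in turn gave 18497 to 23376 sites, 1503 to 1742 regions and 43 to 52 promoters. The share of calls that were higher was 61.4% for sites, 75.3% for regions and 58.0% for promoters, and 51.2%, 57.5% and 43.4% after quantile normalization. The labels do not say whether replicate numbers pair the samples. Correlations of deviations between same-numbered metastases ran from -0.00370 to 0.00849. They cannot decide this, because the counting error of each site is unknown. With a replicate block 21954 sites, 1598 regions and 52 promoters passed. The class differences kept their direction with the replicate block, whose smallest exact permutation p is 0.25. All 20 named sites kept call and direction in 280 runs of the alternatives, and 29 of the 30 named regions did in theirs; the region near Map2k2 on chromosome 10 reversed to 0.142 points when joined at 1000 bp. Of the 26 named promoters, Tlr5, Akt2 and Cldn3 lost their call in 17 of 377 runs, Tlr5 also with the replicate block (12.0 points, adjusted p 0.0604). Because coverage is not in the table, sites with few reads could not be set apart.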
